A study of Mus musculus with 2 samples.

Results

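The genes of arginine metabolism examined here were Arg1, Arg2, Nos2, Gatm, Odc1 and Slc7a2, 6 of the 28692 genes in the count matrices, each found by its symbol. They were followed in single GR-1+ cells from 4T1 tumors, a transplantable triple negative mammary carcinoma model of BALB/c mice. Each of 2 conditions was represented by 1 library. By its label, the 4T1p library came from tumors of the parental line, which resists anti-PD1. The 4T1m library came, by its label, from tumors of a polyclonal 4T1 population mutagenized with MNNG, which responds to anti-PD1. Whether the labels of the libraries were exchanged was not tested, and the depths that raise this question are given below. Both tumor types were grown in the mammary fat pad of female mice aged 8–10 weeks, and both groups of mice received anti-PD1 (clone RMP1-14, 100 µg per mouse) for 2 weeks. GR-1 is a surface epitope shared by Ly6C and Ly6G, and GR-1+ cells were taken magnetically after enzymatic digestion of the tumors. How many tumors went into each library was not given in the sources used here, and no untreated tumors were analysed here.

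Arginine stands at a branch point of metabolism. Arg1, the cytosolic arginase, and Arg2, the mitochondrial arginase, split it into ornithine and urea, whereas Nos2, the inducible nitric oxide synthase, turns it into nitric oxide and citrulline. Gatm carries out the first step of creatine synthesis with arginine as a substrate, Odc1 converts ornithine into the polyamine putrescine, and Slc7a2 is a cationic amino acid transporter that brings arginine into macrophages. Depletion of arginine by arginase and production of nitric oxide are textbook ways in which myeloid cells of tumors restrain T cells, and Arg1 and Nos2 are commonly read as opposite poles of macrophage activation.

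In the GRCm38 annotation, Arg1 (ENSMUSG00000019987) lies on chromosome 10 from 24915221 to 24927484 on the minus strand, and Arg2 (ENSMUSG00000021125) on chromosome 12 from 79130777 to 79156301 on the plus strand. Nos2 (ENSMUSG00000020826) spans 78920787 to 78960254 of chromosome 11 on the plus strand. Gatm (ENSMUSG00000027199) spans 122594467 to 122611303 of chromosome 2 on the minus strand. Odc1 (ENSMUSG00000011179) spans 17544794 to 17551505 of chromosome 12 and Slc7a2 (ENSMUSG00000031596) spans 40862396 to 40922308 of chromosome 8, both on the plus strand. All of them are protein coding. Arg2 overlaps Vti1b and Gm48780 on the opposite strand, Slc7a2 overlaps Gm26584 on the opposite strand, and Odc1 overlaps Gm22748 on its own strand.

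The files held raw UMI counts, 9021132 UMIs in 1641 barcodes of the library labelled 4T1p and 14840190 UMIs in 2749 barcodes of the library labelled 4T1m, and no barcode was shared. Barcodes with 250 to 5000 genes, at most 27000 UMIs and a mitochondrial share no higher than the study's limit were kept, 1128 cells of 4T1p with a median of 2015 UMIs and 2092 of 4T1m with a median of 2739. Each library as labelled had the depth that the study's methods give for the other condition, so every direction between libraries below holds for the labels as deposited, and whether the labels were exchanged was not tested. In the files as labelled, Il1b and Ptgs2 were higher in 4T1m in all 6 monocytic-like states described below, and the Tmem176a/Tmem176b state held 311 cells of 4T1p and 127 of 4T1m. With 1 library per condition there was no test, and each interval is an exact 95% interval (Poisson for a level, binomial for a share or for the ratio of 2 counts) that covers counting error only. Levels are given as CPM, UMIs of a gene per 1000000 UMIs of a group of cells, so fewer molecules per cell and more of other RNAs cannot be told apart.

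The cells were clustered without the arginine pathway genes, and lineages were read from markers. A monocytic-like lineage of 6 clusters (1884 cells) carried C1qa, C1qb, Apoe and other macrophage genes, and a granulocytic-like lineage of 4 clusters (1273 cells) carried S100a8, S100a9 and Cxcr2. The summed level of the 10 monocytic markers was 47104 CPM (4T1p) and 25124 CPM (4T1m) in the monocytic-like cells, against 1254 and 999 CPM in the granulocytic-like cells. The 8 granulocytic markers summed to 164558 and 165859 CPM in the granulocytic-like cells, against 1054 and 1493 CPM in the monocytic-like cells. All of these markers were detected in every one of those groups. A small cluster of 63 cells with B and T cell genes (8 in 4T1p, 55 in 4T1m) was set beside them as cells that should lack Arg1. Clusters are called states and named by 2 of their leading genes. The monocytic-like states were Fabp5/Slc25a4 (449 cells), Tmem176a/Tmem176b (438), C6/Ifnb1 (357), Sdc1/Met (316), Birc5/Ube2c, which carried cell cycle genes (198) and Cd163/Gja1 (126). The granulocytic-like states were Ccdc126/Ciart (438 cells), Mirt1/Hdc (354), Slc2a3/Steap4 (298) and Camp/Ngp, which carried immature neutrophil genes (183). The Fabp5/Slc25a4 state was shallow, with a median of 897 UMIs, and its cells had a median of 36.3% of their own library's median.

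The arginase forms divided by lineage. Arg1 reached 2094 CPM (2053 to 2136) in monocytic-like cells of 4T1p and 2037 CPM (2005 to 2071) in those of 4T1m, against 72.8 CPM (55.6 to 93.7) and 123 CPM (111 to 136) in granulocytic-like cells. Arg2 ran the other way, with 143 CPM (132 to 154) and 158 CPM (149 to 167) in monocytic-like cells and 526 CPM (477 to 578) and 466 CPM (442 to 490) in granulocytic-like cells. The intervals of the lineages did not overlap for either gene in either library. Over both libraries the log2 ratio of monocytic-like over granulocytic-like cells was 4.20 for Arg1 (4.06 to 4.34) and −1.65 for Arg2 (−1.75 to −1.56). In the libraries taken singly it was 4.85 and 4.05 for Arg1 and −1.88 and −1.56 for Arg2, in the order 4T1p and 4T1m. Across all genes with at least 50 UMIs in the 2 lineages, 54.8% were at least 2-fold higher in monocytic-like cells and 10.5% at least 2-fold lower, so a gene on the Arg2 side of this comparison was the rarer kind.

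Arg1 accounted for 93.6% of the arginase UMIs of monocytic-like cells in 4T1p (93.1 to 94.1) and 92.8% in 4T1m (92.4 to 93.2). UMIs count captured 3′ ends and are not scaled by gene length, and the share is one of captured molecules and not of enzyme. Among the 6 monocytic-like states the share ran from 85.7% in the C6/Ifnb1 state of 4T1m to 96.3% in the Birc5/Ube2c state of 4T1p. In granulocytic-like cells Arg1 made up 12.2% (9.42 to 15.4) in 4T1p and 20.9% (19.0 to 22.8) in 4T1m. The lowest shares were in the Camp/Ngp state, with 3.12% and 5.03%.

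**Figure D1:**
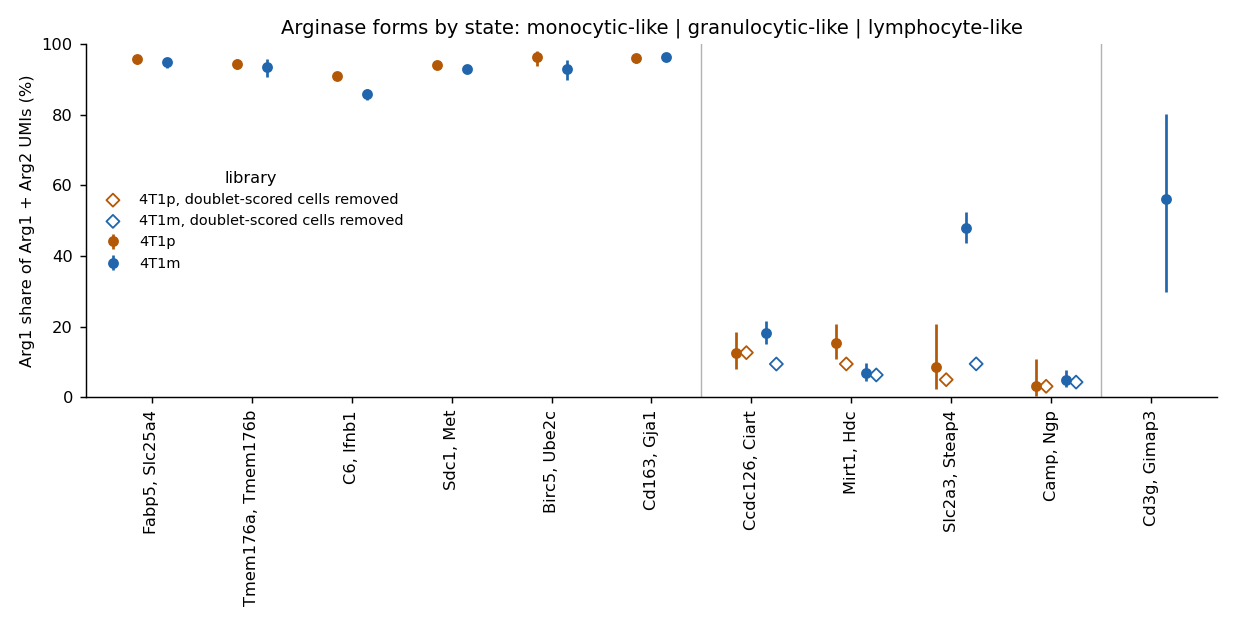
Share of Arg1 among Arg1 and Arg2 UMIs (%) in each state of the 4T1p (brown) and 4T1m (blue) libraries; filled points carry exact binomial 95% intervals and open diamonds give granulocytic-like states without doublet-scored cells. Every monocytic-like state lies between 85.7% and 96.3%, and the 48.1% of the Slc2a3/Steap4 state in 4T1m drops to 9.47% without doublet-scored cells.

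The Arg1 of granulocytic-like cells came largely from a handful of cells. In 4T1m, 3 of 1022 cells held 254 of the 386 Arg1 UMIs, with 158, 56 and 40 UMIs each. These cells had 12937, 13449 and 12592 UMIs in all, against a lineage median of 2482, and each was among the cells with the highest doublet scores. They carried 38, 21 and 232 UMIs of the monocytic markers, where the median granulocytic-like cell of that library carried 1. In 4T1p the cell with the most Arg1 held 14 of the 60 UMIs and was also doublet-scored. Without doublet-scored cells, Arg1 stood at 54.9 CPM (39.9 to 73.7) in 4T1p and 37.7 CPM (31.1 to 45.3) in 4T1m, beside 29.3 CPM (13.4 to 55.6) in the lymphocyte-like cells of 4T1m, and the lineage ratio of Arg1 increased to 5.65 on the log2 scale. Arg1 then made up 9.34% and 7.40% of arginase UMIs in granulocytic-like cells.

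An Arg1 UMI was found in 16.7% of granulocytic-like cells of 4T1p and 10.2% of those of 4T1m (median depths 2717 and 2482 UMIs), and in 16.4% of the lymphocyte-like cells of 4T1m (median depth 4154). After thinning every cell to 1000 UMIs, which left out 22 and 85 granulocytic-like cells and no lymphocyte-like cell, these shares became 7.86%, 4.70% and 5.45%. The share in granulocytic-like cells was thus not above that of the lymphocyte-like cells within counting error, and no expression of Arg1 was read from it. The lymphocyte-like cells were not shown to be a matched background. Those of 4T1m had 9920 CPM of the monocytic markers, against 1254 and 999 CPM in granulocytic-like cells. Those of 4T1p had 2157 CPM with 5 of the 10 markers at 0. The list includes Cd74 and H2-Ab1, and 63.6% of the lymphocyte-like cells of 4T1m had a B cell marker. Which cells this RNA came from cannot be read from the sum. The part of RNA from other cells was not tested. In monocytic-like cells 65.7% and 70.2% had an Arg1 UMI, and 57.5% and 56.2% after thinning, which left out 304 and 243 cells. Arg2 was found in 72.5% and 64.4% of granulocytic-like cells (45.4% and 38.2% thinned), against 7.27% of the lymphocyte-like cells of 4T1m (1.82% thinned).

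Within the monocytic-like lineage Arg1 was uneven. In 4T1p its level was 4129 CPM in the Sdc1/Met state, 3612 in Fabp5/Slc25a4, 3574 in Cd163/Gja1, 1555 in Tmem176a/Tmem176b, 1282 in C6/Ifnb1 and 1134 in Birc5/Ube2c. In 4T1m the Cd163/Gja1 state came first with 3231 CPM, followed by Sdc1/Met (2886), Fabp5/Slc25a4 (2067), Tmem176a/Tmem176b (1170), Birc5/Ube2c (899) and C6/Ifnb1 (736). The same 3 states led in both libraries, and the intervals of Fabp5/Slc25a4 and Cd163/Gja1 overlapped in 4T1p. Single cells varied widely inside a state. The 10% of cells with the most Arg1 held 33.2% of its UMIs in the Sdc1/Met state of 4T1p and 71.3% in the Birc5/Ube2c state of 4T1p.

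Arg2 was highest in the granulocytic-like states Ccdc126/Ciart (666 CPM in 4T1p and 546 in 4T1m), Mirt1/Hdc (574 and 509) and Slc2a3/Steap4 (567 and 500), whose intervals overlapped within each library. The immature Camp/Ngp state was lower, with 292 CPM (224 to 375) and 349 CPM (314 to 388). Among monocytic-like states the Sdc1/Met state had the most Arg2, 261 CPM (226 to 300) and 224 CPM (207 to 242). The cycling Birc5/Ube2c state had the least, 43.6 and 67.2 CPM.

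Nos2 was found in both myeloid lineages. It was at 38.2 CPM (32.8 to 44.3) and 54.0 CPM (48.8 to 59.7) in monocytic-like cells and at 114 CPM (92.2 to 140) and 120 CPM (108 to 133) in granulocytic-like cells, a log2 ratio of −1.31 (−1.49 to −1.13). No Nos2 UMI was found in 63 lymphocyte-like cells. The state with the most Nos2 was the granulocytic-like Ccdc126/Ciart, at 186 CPM (133 to 252) and 248 CPM (216 to 284), where 28.3% and 27.5% of cells had a UMI (19.8% and 17.2% thinned). The Slc2a3/Steap4 state followed with 148 and 126 CPM. Among monocytic-like states only Sdc1/Met came near these levels, with 138 CPM (113 to 167) and 118 CPM (106 to 132), and it held 107 of the 177 monocytic-like Nos2 UMIs of 4T1p and 337 of the 390 of 4T1m. The next monocytic-like state, Fabp5/Slc25a4, had 67.3 and 34.3 CPM, and the remaining monocytic-like states had between 5.83 and 22.0 CPM.

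Gatm, Slc7a2 and Odc1 were genes of the monocytic-like side. Gatm was at 1297 and 752 CPM there and at 58.3 and 30.8 CPM in granulocytic-like cells, a log2 ratio of 4.72 (4.49 to 4.97). It was highest in the cycling Birc5/Ube2c state (2214 CPM in 4T1p and 1464 in 4T1m), Tmem176a/Tmem176b (1715 and 1310) and C6/Ifnb1 (1511 and 1090). Its lowest monocytic-like level was in the Sdc1/Met state, 339 CPM (299 to 382) and 355 CPM (333 to 377), where Arg1 was among the highest.

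Slc7a2, the arginine importer, had a different peak. Its monocytic-like level was 68.0 CPM (60.7 to 75.9) in 4T1p and 147 CPM (139 to 156) in 4T1m, and only 13 of its UMIs fell in granulocytic-like cells. The Sdc1/Met state, which led in Nos2 and in Arg1 of 4T1p, also had the most Slc7a2, at 176 CPM (148 to 208) and 243 CPM (225 to 261), and the Cd163/Gja1 state followed at 126 and 125 CPM. Of the states with much Gatm, Tmem176a/Tmem176b and Birc5/Ube2c had between 14.2 and 26.8 CPM and C6/Ifnb1 had 43.4 and 92.2 CPM.

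Odc1 was less selective. It was at 188 CPM (175 to 200) and 223 CPM (212 to 234) in monocytic-like cells and at 49.8 and 47.3 CPM in granulocytic-like cells. The lymphocyte-like cells had as much or more, with 349 CPM (203 to 559) and 341 CPM (279 to 413). Among monocytic-like states it ran from 89.7 CPM in Tmem176a/Tmem176b to 324 CPM in Cd163/Gja1, both in 4T1p. Of the 6 genes, Arg1, Gatm, Odc1 and Slc7a2 were thus at least 2-fold higher in monocytic-like cells, and Arg2 and Nos2 at least 2-fold lower. Of all genes with at least 50 UMIs, 54.8% were higher and 10.5% lower by that threshold. With at most 5% mitochondrial UMIs the ratio of Nos2 was −0.89, within 2-fold, and with the lineage set per cell that of Slc7a2 was 2.85 in place of 5.15.

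**Figure D2:**
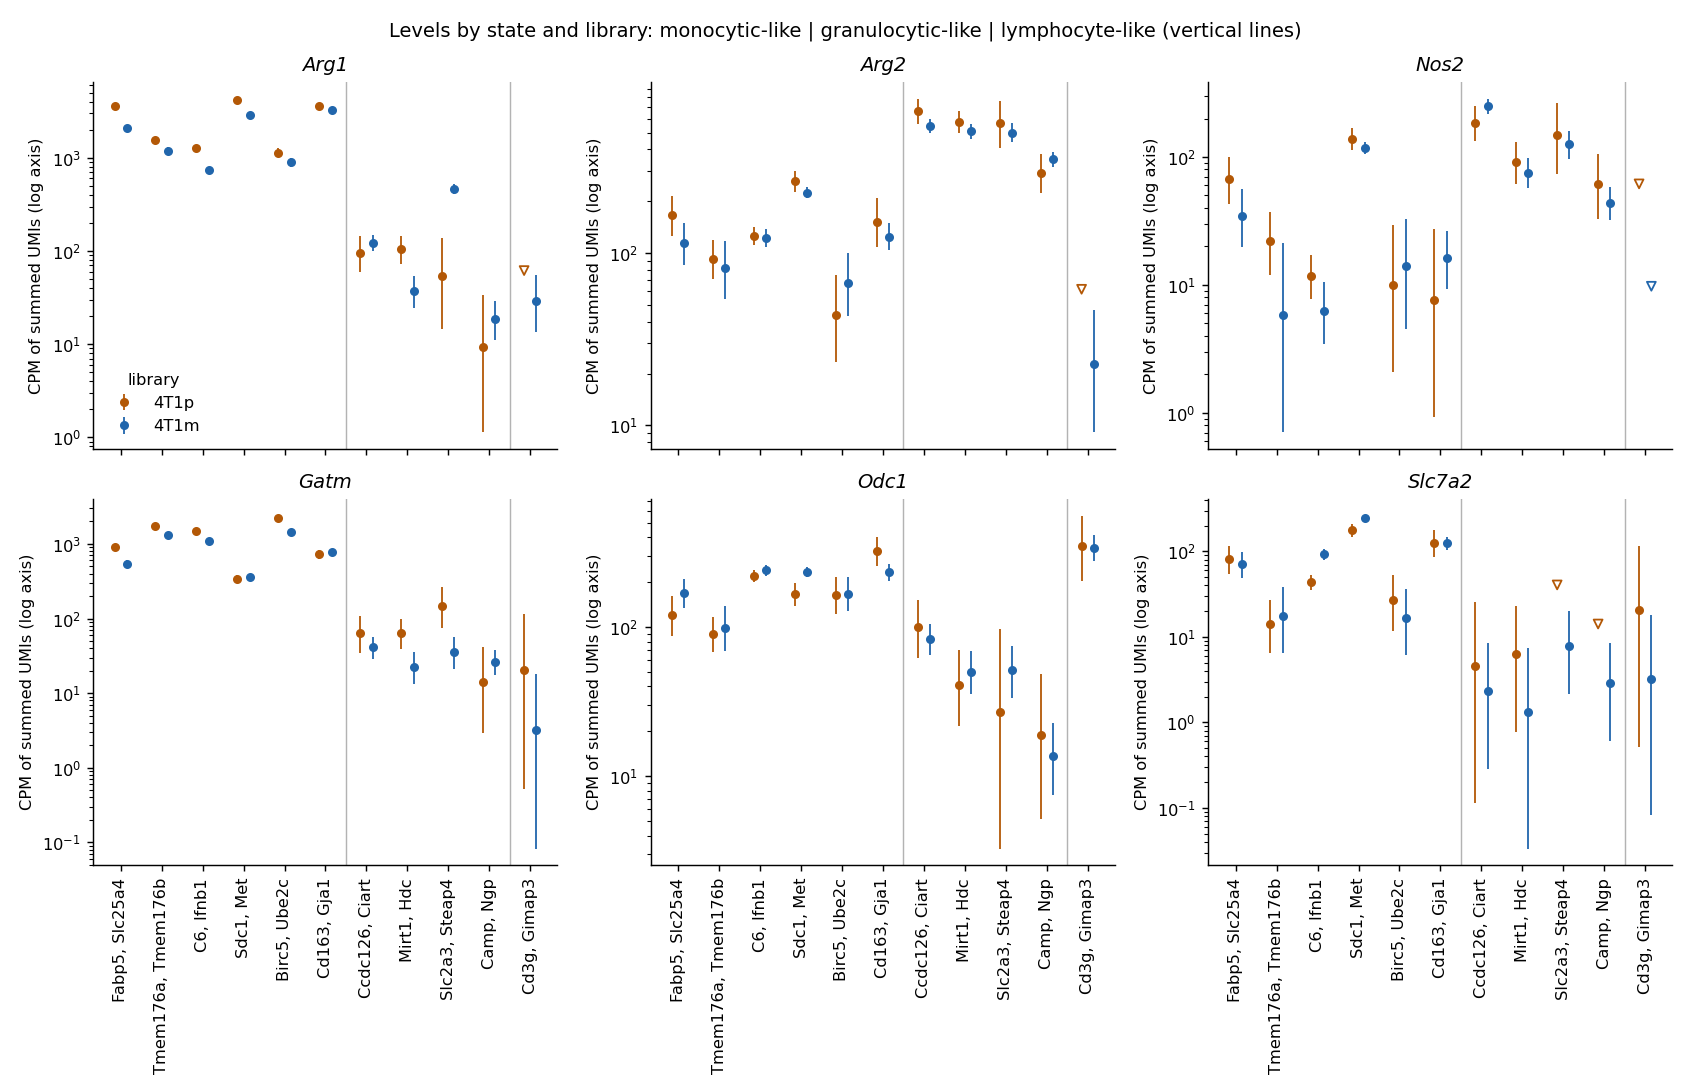
CPM of summed UMIs (log axis) of each gene by state in the 4T1p (brown) and 4T1m (blue) libraries, with exact Poisson 95% intervals; vertical lines part the monocytic-like, granulocytic-like and lymphocyte-like states, and open triangles mark the level of 3 UMIs where none was found. Arg1 and Gatm fall away on the granulocytic-like side, Arg2 climbs there, and Nos2 peaks in the Ccdc126/Ciart state at 186 and 248 CPM and in the Sdc1/Met state at 138 and 118 CPM.

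The libraries were then compared within each lineage, as a description of RNA levels in 1 library of each condition as labelled. Summed over the monocytic-like cells, Arg1 was nearly equal, with a log2 ratio of 4T1m over 4T1p of −0.04 (−0.077 to −0.0026). Inside the states it was not equal. The ratio was −0.81 (−0.93 to −0.68) in Fabp5/Slc25a4, −0.80 (−0.89 to −0.71) in C6/Ifnb1, −0.52 (−0.58 to −0.46) in Sdc1/Met and −0.41 (−0.58 to −0.24) in Tmem176a/Tmem176b. It was −0.34 (−0.56 to −0.11) in Birc5/Ube2c and −0.15 (−0.25 to −0.04) in Cd163/Gja1. The summed level of Arg1 was thus lower in 4T1m in all 6 monocytic-like states, and none of their intervals reached 0. Without the shallow Fabp5/Slc25a4 state the summed ratio was 0.05. As background, 13.1% of the 1650 genes with at least 50 UMIs in each of these states were lower in 4T1m in all 6, and 16.4% were higher in all 6. These shares count the direction only, and the share of genes whose intervals all stayed clear of 0 was not computed.

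The equal sums went with a different mix of states. The Arg1-rich Sdc1/Met state supplied 16.7% of the monocytic-like UMIs of 4T1p and 39.5% of those of 4T1m, and Cd163/Gja1 supplied 5.67% and 13.6%. The Arg1-poor C6/Ifnb1 and Tmem176a/Tmem176b states supplied 49.8% and 13.7% in 4T1p but 30.8% and 4.75% in 4T1m. When the states of both libraries were weighted by their UMI shares in 4T1p, Arg1 came to 2094 CPM in 4T1p and 1409 CPM in 4T1m, a log2 ratio of −0.57. With the shares of 4T1m it came to 2873 and 2037 CPM, a ratio of −0.50. Averaging the CPM of single cells in place of summing their UMIs kept the lower value in 5 of the 6 states and turned Cd163/Gja1 to 0.17, a state with only 25 cells in 4T1p. The ratios of the 5 states were smaller in size than the summed ones and had no intervals. They were −0.42 in Fabp5/Slc25a4, −0.62 in C6/Ifnb1, −0.40 in Sdc1/Met, −0.10 in Tmem176a/Tmem176b and −0.21 in Birc5/Ube2c.

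Nos2 showed the same kind of turn with fewer counts. Its summed ratio in monocytic-like cells was 0.50 (0.24 to 0.76), whereas at the 4T1p mix of states it was −0.44. The state that held most of its UMIs, Sdc1/Met, had a ratio of −0.23 (−0.54 to 0.10), which counting error spans. The Fabp5/Slc25a4, Tmem176a/Tmem176b and C6/Ifnb1 states had ratios of −0.97, −1.92 and −0.89 on 40, 16 and 41 UMIs, and Birc5/Ube2c and Cd163/Gja1 had 0.48 and 1.10 on 8 and 18 UMIs, all with intervals that held 0. As a mean of cells the Sdc1/Met state had 106 CPM in 4T1p and 121 CPM in 4T1m, a ratio of 0.19, so the direction inside that state depended on the averaging.

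Slc7a2 was the member with the largest difference between the libraries and the only one past 2-fold, although with at most 5% mitochondrial UMIs Gatm was also past it at −1.21 (−1.29 to −1.13). Its ratio in monocytic-like cells was 1.12 (0.93 to 1.30), where 7.53% of all genes with at least 50 UMIs were at least 2-fold higher in 4T1m and 1.87% at least 2-fold lower. At the 4T1p mix of states it was 0.59. It was higher in 4T1m inside C6/Ifnb1 (1.09, 0.74 to 1.46) and Sdc1/Met (0.46, 0.20 to 0.74), whereas in Cd163/Gja1 the ratio was −0.01 (−0.58 to 0.59). In Fabp5/Slc25a4 the ratio was −0.20 (−0.96 to 0.57). With at most 9 UMIs in a library, it was 0.31 (−1.47 to 1.96) in Tmem176a/Tmem176b and −0.68 (−2.48 to 1.04) in Birc5/Ube2c.

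Gatm was lower in 4T1m, with a summed monocytic-like ratio of −0.79 (−0.84 to −0.73), or −0.43 at the 4T1p mix of states. The states with the most Gatm showed it, with −0.60 in Birc5/Ube2c, −0.39 in Tmem176a/Tmem176b and −0.47 in C6/Ifnb1. The Fabp5/Slc25a4 state, with less Gatm (906 CPM in 4T1p and 537 CPM in 4T1m), showed it too. Its ratio of −0.76 was the largest decrease among the monocytic-like states. The Sdc1/Met and Cd163/Gja1 states did not, at 0.07 (−0.13 to 0.27) and 0.11 (−0.12 to 0.35). Odc1 was slightly higher in 4T1m over the lineage, at 0.25 (0.13 to 0.37), with 0.50 in Sdc1/Met and −0.47 in Cd163/Gja1. Arg2 in monocytic-like cells was at 0.14 (0.0005 to 0.28) summed and at −0.14 at the 4T1p mix.

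In granulocytic-like cells 5 of the 6 genes had at least 50 UMIs, and none of them was past 2-fold, against 7.17% of all genes higher and 3.21% lower in 4T1m. Arg2, the main arginase of these cells, was at −0.18 (−0.33 to −0.02), and its ratio ran from −0.29 in Ccdc126/Ciart to 0.26 in Camp/Ngp. Nos2 was at 0.07 (−0.26 to 0.42). The Arg1 ratio was 0.75 (0.36 to 1.17) but turned to −0.54 (−1.05 to −0.01) without doublet-scored cells, so its sign rested on the few cells described above. Gatm was at −0.92 (−1.43 to −0.39), at levels of 58.3 and 30.8 CPM. With the lineage set per cell its ratio was −0.19 (−0.66 to 0.31), and with at most 5% mitochondrial UMIs −0.65 (−1.29 to 0.01). The intervals of the lymphocyte-like cells, on 1 Gatm UMI in each library, reached 114 and 18.1 CPM. The level of 4T1p thus lay below that limit and the level of 4T1m above it. Monocytic-like cells, whose Gatm was also lower in 4T1m, made up 869 of the 1128 cells of 4T1p and 1015 of the 2092 of 4T1m, and the part of their RNA in this ratio was not tested.

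**Figure D3:**
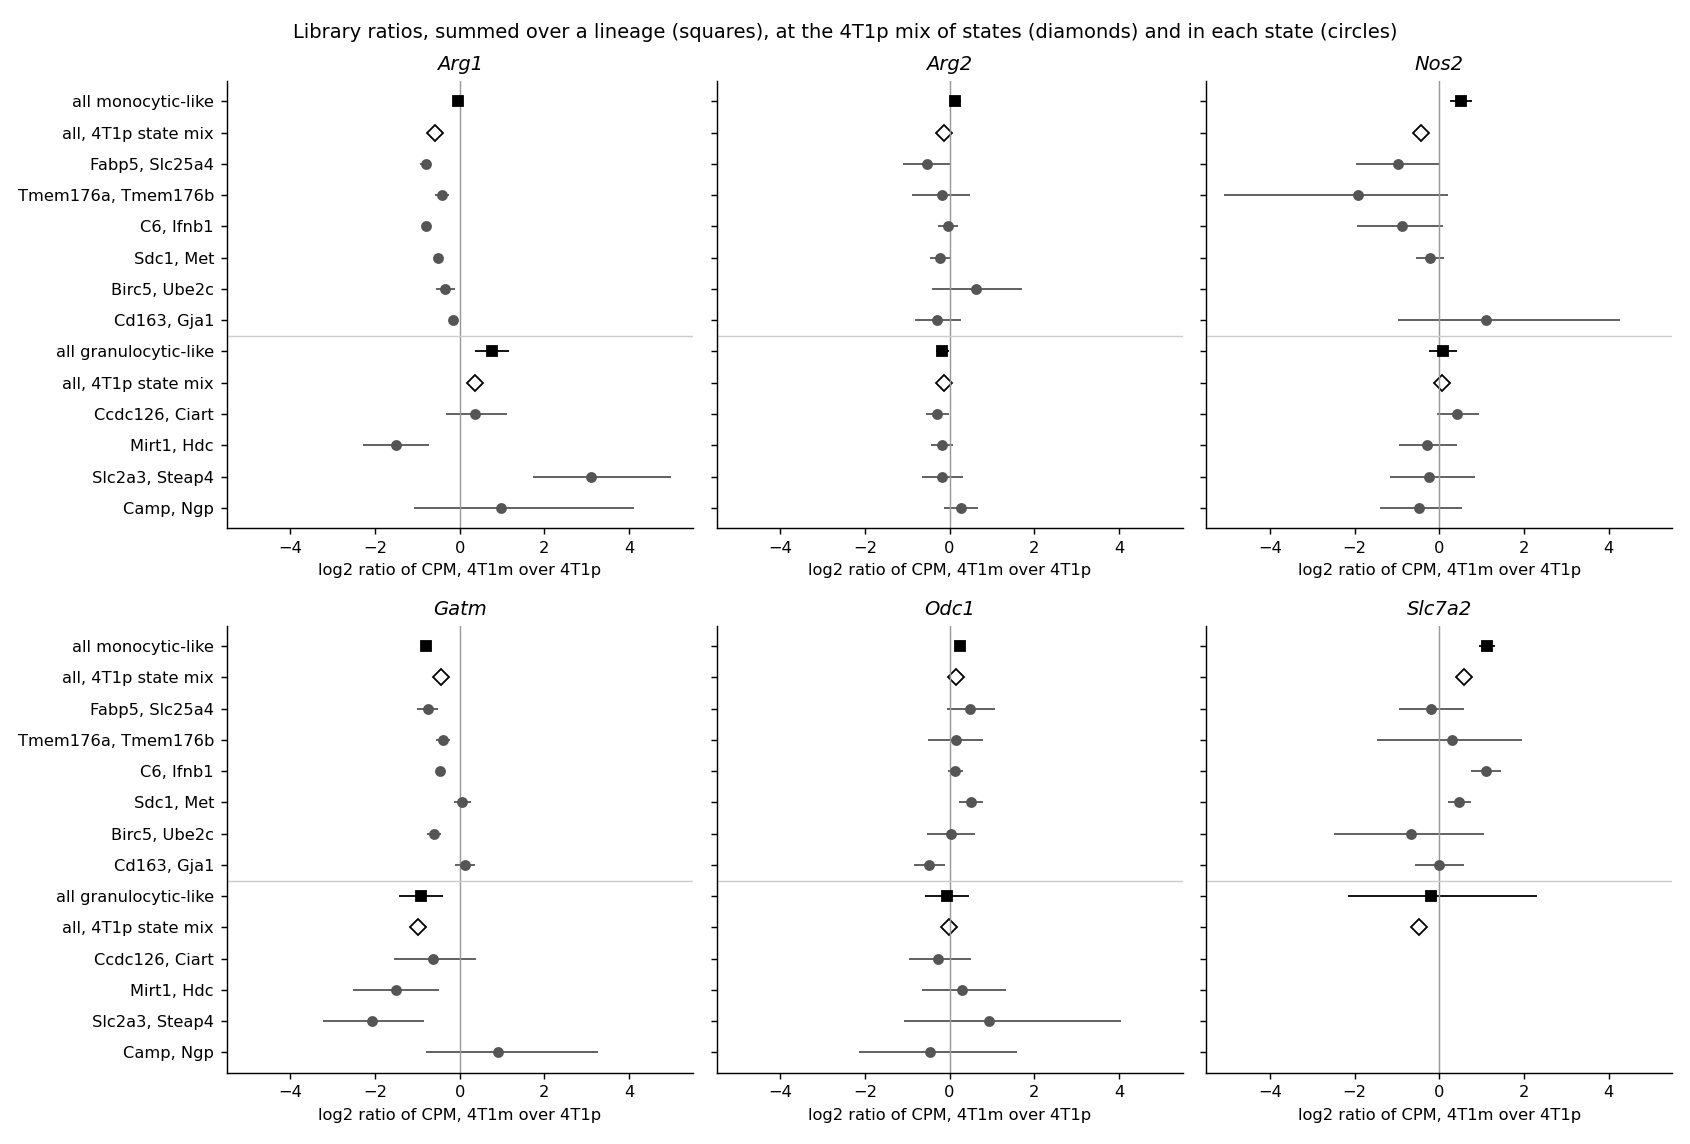
Log2 ratio of CPM, 4T1m over 4T1p, for each gene, summed over a lineage (squares), at the 4T1p mix of states (diamonds, no interval) and in each state with at least 10 UMIs of the gene and a UMI in both libraries (circles), with exact 95% intervals. For Arg1 the monocytic-like square sits at −0.04 while the 6 circles sit between −0.81 and −0.15, and for Nos2 the square at 0.50 and the diamond at −0.44 lie on opposite sides of 0.

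Arg1 and Nos2 were found in the same cells. Of the monocytic-like cells with a Nos2 UMI, 53 of 59 in 4T1p and 99 of 102 in 4T1m also had an Arg1 UMI. A Nos2 UMI was present in 9.28% (7.03 to 12) of cells with Arg1 and 2.01% (0.74 to 4.33) of cells without it in 4T1p, and in 13.9% (11.4 to 16.7) and 0.99% (0.20 to 2.87) in 4T1m. Deep cells show more of every gene, so each cell was also thinned to 1000 UMIs. The shares were then 5.23% (3.08 to 8.24) against 0.42% (0.01 to 2.30) in 4T1p and 5.99% (3.95 to 8.66) against 1.18% (0.32 to 3.0) in 4T1m. The intervals did not overlap in either library.

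Most of these cells belonged to the Sdc1/Met state, in which 28 of 29 and 75 of 78 cells with Nos2 also had Arg1. Inside that state the thinned shares of cells with Nos2 were 16.7% (7.92 to 29.3) with Arg1 and 0% of 15 cells (up to 21.8) without it in 4T1p, and 11.9% (7.54 to 17.7) and 6.25% (1.73 to 15.2) in 4T1m, so their intervals overlapped. The level of Arg1 in the Sdc1/Met cells with a Nos2 UMI was 5174 CPM in 4T1p and 3831 CPM in 4T1m, against 3069 and 2413 CPM in those without. The intervals of the paired values did not overlap. The 2 kinds of cells differed in depth in 4T1p (medians of 13754 and 7408 UMIs) but hardly in 4T1m (11150 and 11296). S100a8, a neutrophil gene, was at 706 against 65.1 CPM in 4T1p and at 349 against 519 CPM in 4T1m, and 1 of 29 and 2 of 78 cells with Nos2 were doublet-scored. The 29 cells with Nos2 of 4T1p held 275 S100a8 UMIs. All 62 Sdc1/Met cells with Arg1 in that library, 28 of the 29 among them, held only 84 (115 CPM), and none was doublet-scored. Most of the 275 UMIs thus lay in the 1 doublet-scored cell with Nos2 and without Arg1. Inside the same state Slc7a2 was at 182 CPM (142 to 230) with Nos2 and 169 CPM (131 to 216) without in 4T1p, with overlapping intervals, and at 372 CPM (334 to 413) and 178 CPM (159 to 198) in 4T1m. Over the whole lineage Slc7a2 was detected in 52.5% and 64.7% of monocytic-like cells with Nos2 and in 10.2% and 19.6% of those without, and after thinning in 27.8% (9.69 to 53.5) and 26.7% (12.3 to 45.9) against 4.39% and 7.28%.

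The arginase forms showed no such link within monocytic-like cells. Arg2 was found in 34.9% and 48.7% of cells with Arg1 and in 16.8% and 26.4% of cells without, but thinning removed the gap, with 41 of 325 cells (12.6%) against 30 of 240 in 4T1p and 13.6% against 13.3% in 4T1m. In granulocytic-like cells Nos2 was found in 22.0% and 19.3% of cells with Arg2 and in 17.4% and 16.8% of those without, and after thinning in 11 of 104 and 43 of 358 against 12 of 125 and 60 of 579, with overlapping intervals.

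**Figure D4:**
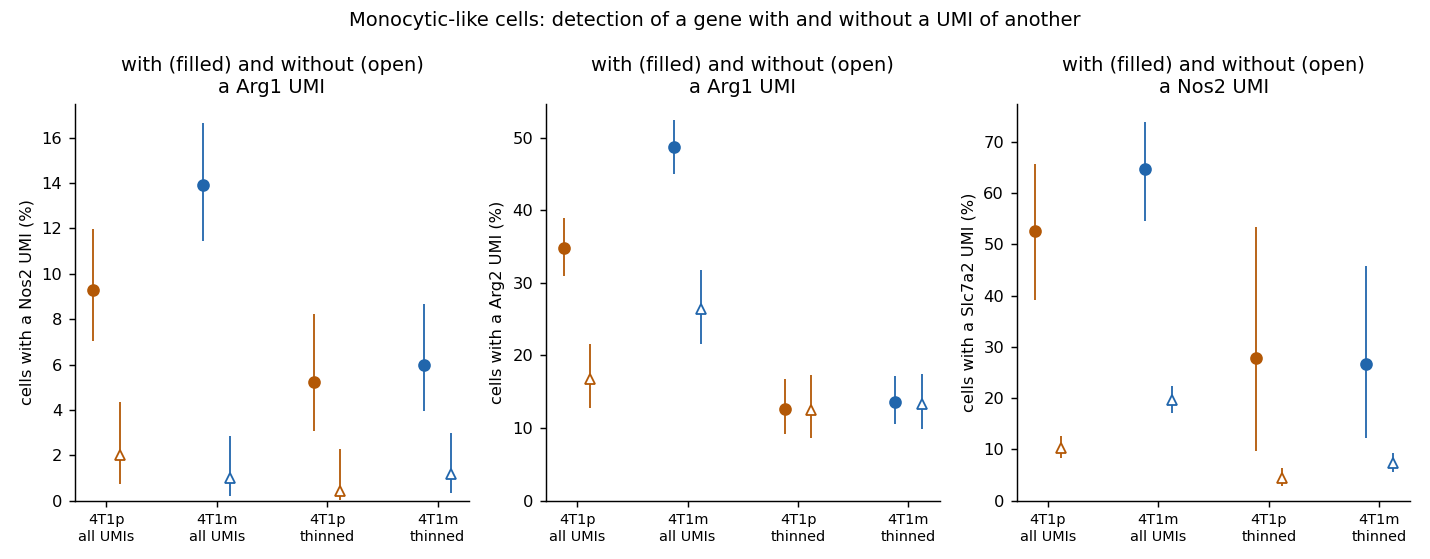
Percent of monocytic-like cells with a UMI of Nos2 (left), Arg2 (middle) or Slc7a2 (right) among cells with (filled circles) and without (open triangles) a UMI of Arg1, Arg1 or Nos2, in 4T1p (brown) and 4T1m (blue), for all UMIs and after thinning to 1000 UMIs; bars are exact binomial 95% intervals. The gap for Nos2 stays after thinning (5.23% against 0.42% and 5.99% against 1.18%), and the gap for Arg2 closes (13.6% against 13.3% in 4T1m).

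The other 53 genes of the pathway were described by lists of transporters, the urea cycle steps, nitric oxide, polyamines, proline and glutamate, creatine and protein arginine. Between the lineages 38 of them had at least 50 UMIs. In monocytic-like cells 26 were at least 2-fold higher and 4 at least 2-fold lower, beside 54.8% and 10.5% of all 9439 genes. The median log2 ratio of the 38 was 2.38, against 1.24 over all genes. Smox, Padi4 and Pts were on the granulocytic-like side. Smox, the spermine oxidase of polyamine catabolism, was at 129 CPM in monocytic-like and 612 CPM in granulocytic-like cells (log2 ratio −2.25, −2.34 to −2.16). Padi4, which turns protein arginine into citrulline in neutrophils, was at 80.7 CPM in the immature Camp/Ngp state and at most 17.2 CPM in any other. Sat1, which acetylates polyamines, was at 617 and 1082 CPM (−0.81, −0.87 to −0.76). Gch1 and Pts, enzymes of the tetrahydrobiopterin cofactor that nitric oxide synthases need, were at 82.4 and 29.1 CPM in monocytic-like cells and at 136 and 87.9 CPM in granulocytic-like cells. Qdpr, which regenerates that cofactor, went the other way, with 323 UMIs against 5.

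The recycling and creatine genes were on the monocytic-like side. Ass1, which starts the return of citrulline to arginine, had 191 UMIs in monocytic-like cells and none in granulocytic-like cells, a log2 ratio of at least 4.42 against a level of 3 UMIs over the group. Gamt, the enzyme after Gatm in creatine synthesis, Slc6a8, the creatine transporter, and Ckb, a creatine kinase, had log2 ratios of 4.08, 3.54 and 4.05. Srm, the spermidine synthase that follows Odc1, was at 3.67, and Slc7a1 and Slc7a7, further transporters of cationic amino acids, were at 1.33 and 3.28. Slc3a2, the heavy chain that pairs with Slc7a7, was at −0.21.

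In monocytic-like cells 37 of the other pathway genes had at least 50 UMIs, 1 was at least 2-fold higher in 4T1m and 1 at least 2-fold lower, beside 7.53% and 1.87% of all genes, with a median log2 ratio of −0.03 against 0.12 over all genes. The higher one was Ddah2, which degrades methylated arginine inhibitors of nitric oxide synthases, with 10 and 45 UMIs (1.53, 0.52 to 2.68). The lower one was Ass1, at 25.7 CPM in 4T1p and 9.98 CPM in 4T1m (−1.36, −1.81 to −0.93). Gamt and Ckb stood just inside the threshold at −0.93 and −0.96, on the same side as Gatm. In granulocytic-like cells 12 genes had enough UMIs and none was past 2-fold, beside 7.17% of all genes higher and 3.21% lower in 4T1m.

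Genes known to regulate Arg1 or Nos2 were read beside them. Between the lineages none of 12 was at least 2-fold higher in monocytic-like cells and Cebpb and Irf1 were lower, beside 54.8% and 10.5% of all genes. Between the libraries Hif1a and Nfkb1 were at least 2-fold higher in 4T1m in both lineages and none was lower, where 7.53% and 7.17% of all genes were higher and 1.87% and 3.21% lower in the lineages, shares that also stand beside the counts of the next lists. Hif1a, the hypoxia-inducible factor, went from 239 to 501 CPM in monocytic-like cells (1.07, 0.97 to 1.17) and from 353 to 786 CPM in granulocytic-like cells (1.15, 0.98 to 1.33). Nfkb1 went from 137 to 366 CPM and from 77.7 to 169 CPM. Cebpb, a factor of Arg1 transcription, was at 7310 CPM in granulocytic-like and 1678 CPM in monocytic-like cells (log2 ratio of monocytic-like over granulocytic-like −2.12), the direction of Arg2 and not of Arg1. Whether Cebpb acts on either gene in these cells was not tested. Of 7 macrophage genes often read with Arg1, Retnla was the one past 2-fold in monocytic-like cells of 4T1m (22.2 to 63.5 CPM), and Chil3 was lower in granulocytic-like cells (200.3 to 29.6 CPM). Of 7 often read with Nos2, Ptgs2 and Il6 were higher in monocytic-like cells of 4T1m (log2 ratios 2.06 and 1.20) and Cxcl9 was lower (−1.26). At the 4T1p mix of states Retnla was at 0.33, Il6 at 0.54, Cxcl9 at −0.44 and monocytic-like Hif1a at 0.86, all within 2-fold, while Ptgs2 was at 1.29. Cd163 and Chil3, also of the list read with Arg1, were within 2-fold when summed over monocytic-like cells. At that mix they were past it, lower in 4T1m at −1.86 and −1.64. The Cd163/Gja1 state held 547 of the 561 monocytic-like Retnla UMIs. The Camp/Ngp state, with 25 cells in 4T1p, held 255 of the 258 granulocytic-like Chil3 UMIs.

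The genes whose levels ran most alike over 19 groups of 1 state and 1 library with at least 30 cells were found by Pearson's r of log2(CPM + 10) among 3860 genes with at least 500 UMIs. These groups share libraries, depth and lineage, so r is a description. For Arg1 they were Mt1 (0.96), Cxcl14 (0.95), Trem2 (0.94), Mt2 (0.94) and Pf4 (0.93). For Arg2 they were Smox (0.97), Grina (0.96), Cebpb (0.96), Cd9 (0.96) and Clec4d (0.96). For Nos2 they were Slc2a1 (0.95), Rgcc (0.93), Ero1l (0.92), Egln3 (0.90) and Plin2 (0.90). For Gatm they included C1qb, C1qa, C1qc and Aif1 (0.99 to 0.98), for Odc1 Eprs, Epb41l2, Noc2l, Pura and Myo1e (0.94 to 0.93), and for Slc7a2 Vat1, Pdpn, Il6, Slc7a8 and Tnfsf9 (0.93 to 0.92). C1qa, C1qb, C1qc and Aif1, and Clec4d of the Arg2 list, are among the markers that set the lineages. Among the members themselves Nos2 ran with Arg2 (0.89) and not with Arg1 (−0.19), whereas Arg1 ran with Slc7a2 (0.86) and Gatm (0.81).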

How the data were processed

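The authors deposited UMI counts that were not normalized, made with Cell Ranger on mm10 from 10x 3′ libraries of GR-1+ cells; the study's methods and the matrix header name different Cell Ranger releases. These counts were summed by cluster and library after removal of Gm42418 and AY036118, which hold ribosomal RNA. Clusters came from SCTransform (Seurat 5.3.0, sctransform 0.4.2, R 4.3.3), 3000 variable genes less those of the arginine lists, mitochondrial share regressed out, 11 components and Louvain resolution 0.8. Lineages took the higher mean relative share of fixed markers. Doublets were scored with Scrublet (scanpy 1.11.5), and the top 1% per 1000 cells (13 cells of 4T1p and 44 of 4T1m) were removed only as an alternative. Ratios used exact intervals (scipy 1.17.1). Their code was run on simulated Poisson sums, which follow the model of the intervals and leave out the clumping of UMIs in single cells. All results are descriptions of 1 library per condition, from an unstated number of mice. The members and lists were chosen with earlier results of these data known. Named were the members, list genes at or beyond a log2 ratio of 1 between libraries with at least 50 UMIs, list examples with many UMIs, and the 5 genes most like Arg1, Arg2 and Nos2. Other list genes, such as those named between lineages, and the genes most like Gatm, Odc1 and Slc7a2 were named after their values were seen. Coordinates are from GENCODE M21 (GRCm38). Alternatives: filters, doublets, normalization, resolution, clustering with arginine genes, lineage per cell, mean of cells, and, chosen after seeing the data, leaving out the shallowest cluster and weighting states alike. Some items are not reported here.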

Additional observations from a re-analysis of the deposited data

Results flagged for a closer look

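Arg1 and Arg2 differed between the libraries in opposite directions in the lineages. Summed Arg1 had a log2 ratio of 4T1m over 4T1p of −0.04 in the monocytic-like lineage, against 0.75 in the granulocytic-like lineage. Summed Arg2 had a ratio of 0.14 in the former and −0.18 in the latter. The difference between the lineages was not tested, since each condition has 1 library. For Arg1 the granulocytic-like ratio was −0.54 without doublet-scored cells, and 3 cells held 254 of the 386 Arg1 UMIs of 4T1m. For Arg2 both ratios were −0.14 when states were weighted by their UMI shares in 4T1p.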

How the results depend on the processing

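No paired analysis was possible because each condition has 1 library, and leaving out a replicate was not possible for the same reason. Each ratio of a member summed over a lineage was recomputed under up to 11 alternatives, and the causes of the changes below were not tested. Library ratios inside the states were recomputed as a mean of cells and with doublets removed, but not under the other filters or with log-normalization. The lineage ratio of Arg1 kept its direction throughout, at 4.34 with a Ptprc UMI required, 5.65 with doublets removed, 4.44 with at most 5% mitochondrial UMIs, 4.34 with at least 1000 UMIs per cell, 5.35 with log-normalization, 2.77 with the lineage set per cell and 4.67 as a mean of cells. That of Arg2 was −1.41 with at most 5% mitochondrial UMIs and −1.92 as a mean of cells.

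Between the libraries, Arg1 of monocytic-like cells was −0.10 with at most 5% mitochondrial UMIs, −0.12 with the lineage set per cell and −0.57 at the 4T1p mix of states, and it turned to 0.01 as a mean of cells and to 0.05 without the shallowest cluster. Arg1 of granulocytic-like cells was 1.24 with at most 5% mitochondrial UMIs, 1.88 with the lineage set per cell and 0.36 at the 4T1p mix, and it turned to −0.54 with doublets removed, −0.77 with log-normalization and −0.13 as a mean of cells. Nos2 of monocytic-like cells was 0.90 with at most 5% mitochondrial UMIs and turned to −0.44 at the 4T1p mix, where Arg2 of monocytic-like cells turned to −0.14. Of 128 values of the 12 other member results, 110 lay within the main counting interval. These include the values at the other resolution and with arginine genes kept in clustering. Both alternatives gave the same lineage sizes and the same ratios as the main setting, so their values had to lie inside. Those outside included the lineage ratio of Nos2 (−0.89) and the library ratio of Gatm in monocytic-like cells (−1.21) with at most 5% mitochondrial UMIs. With the lineage set per cell they included the lineage ratio of Slc7a2 (2.85) and the library ratio of Gatm in granulocytic-like cells (−0.19). With 1 library per condition, spread between tumors could not be measured, and the depth limits Slc7a2 in granulocytic-like cells, which rests on 13 UMIs.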

Other observations

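Barcodes outside the limits also carried these genes. In the 57 and 59 barcodes above the UMI or gene limits (4T1p and 4T1m), Arg1 was at 1684 and 1015 CPM and Gatm at 1268 and 835 CPM. In the 443 and 560 barcodes above the mitochondrial limit, Arg1 was at 390 and 556 CPM and Gatm at 543 and 383 CPM, whereas Arg2 was at 90.8 and 153 CPM.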
